A study of Mus musculus with 36 samples.

Results

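The interferon-inducible GTPases described here are 8 mouse genes, Gbp2, Gbp3, Gbp5 and Gbp7 of the guanylate-binding proteins and Irgm1, Irgm2, Igtp and Iigp1 of the immunity-related GTPases. They were taken by name from 50509 gene symbols, and all 8 were found. RNA of mouse embryonic fibroblasts was sequenced in 36 libraries, 3 for each of 12 groups. GHMT cells, fibroblasts transduced with the heart transcription factors Gata4, Hand2, Mef2c and Tbx5, were kept with 1% dimethyl sulfoxide (DMSO, a polar solvent) or left untreated, and uninfected fibroblasts were likewise kept with 1% DMSO or left untreated, each with labelled time points of days 2, 7 and 21. The series' text does not settle whether DMSO was begun or cells were sampled at those days, so the length of treatment is not known here, and the groups follow the labelled time points. All cells came from E12.5-13.5 embryos of a strain with mCherry under the promoter of Myh6, and all were grown in StemPro34 medium with FGF2, FGF10 and VEGF. The labels name no control virus, so the uninfected cells lack both the factors and the infection. Whether the 3 libraries of a group came from cultures grown apart is not stated, and the p-values below therefore rest on library-to-library spread that may be only technical.

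Both families are GTPases that mouse cells make in quantity after interferon. Guanylate-binding proteins gather on the membranes of vacuoles that hold microbes and on bacteria, and they promote inflammasome activation. Among the immunity-related GTPases, Irgm1, Irgm2 and Igtp are regulators that sit on the cell's own membranes, while Iigp1 is an effector that loads onto the vacuole of Toxoplasma. Interferon gamma acts at DNA elements called gamma-activated sequences (GAS). Type I interferons act at interferon-stimulated response elements (ISRE), which interferon regulatory factors such as IRF1 also bind.

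The sequences before the starts of these genes are shown because the members moved together in the libraries below. RefSeq promoter windows of 300 bases on GRCm38.p6, 250 before and 50 after each annotated start, were found for 7 of the 8 genes, all but Iigp1. Windows were searched on both strands for GAAA-NN-GAAA (ISRE, hyphens for reading) and TTCNNNGAA (GAS, which reads the same on both strands). Each line gives 70 bases around the first ISRE match, read 5′ to 3′ along the gene, with matches to either pattern in capitals.
Irgm1: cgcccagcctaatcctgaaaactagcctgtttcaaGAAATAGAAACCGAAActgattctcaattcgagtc
Irgm2: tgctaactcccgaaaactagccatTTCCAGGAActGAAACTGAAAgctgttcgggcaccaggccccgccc
Igtp: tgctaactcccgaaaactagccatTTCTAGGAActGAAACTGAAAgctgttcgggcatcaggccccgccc
Gbp2: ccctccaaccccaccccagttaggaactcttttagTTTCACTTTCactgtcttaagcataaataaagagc
Gbp3: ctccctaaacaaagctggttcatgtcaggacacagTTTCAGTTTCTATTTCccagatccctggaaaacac
Gbp5: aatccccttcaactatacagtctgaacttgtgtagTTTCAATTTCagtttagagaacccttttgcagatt
Gbp7: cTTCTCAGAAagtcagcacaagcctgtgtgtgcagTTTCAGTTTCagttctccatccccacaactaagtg

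The Irgm1 stretch lies on the minus strand at chr11:48871416-48871485, and the Irgm2 and Igtp stretches lie on the plus strand at chr11:58214878-58214947 and chr11:58199487-58199556. The 4 guanylate-binding protein stretches lie on the plus strand, at chr3:142620569-142620638 for Gbp2, chr3:142559964-142560033 for Gbp3, chr3:142496734-142496803 for Gbp5 and chr3:142530248-142530317 for Gbp7. The stretches of Irgm2 and Igtp have 68 of 70 bases in common. An ISRE match stood in a window of all 7 genes, against 3.44% of the 32851 windows in the table. A GAS match stood in the windows of Gbp5, Gbp7, Irgm2 and Igtp, against 8.3% of all windows, and both patterns together stood in 0.454% of all windows. The ISRE matches of Gbp3 and Irgm1 are pairs of overlapping matches. A second, later start listed for Gbp3 had no match in its window. A match is a description of the letters and shows no binding.

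**Figure D1:**
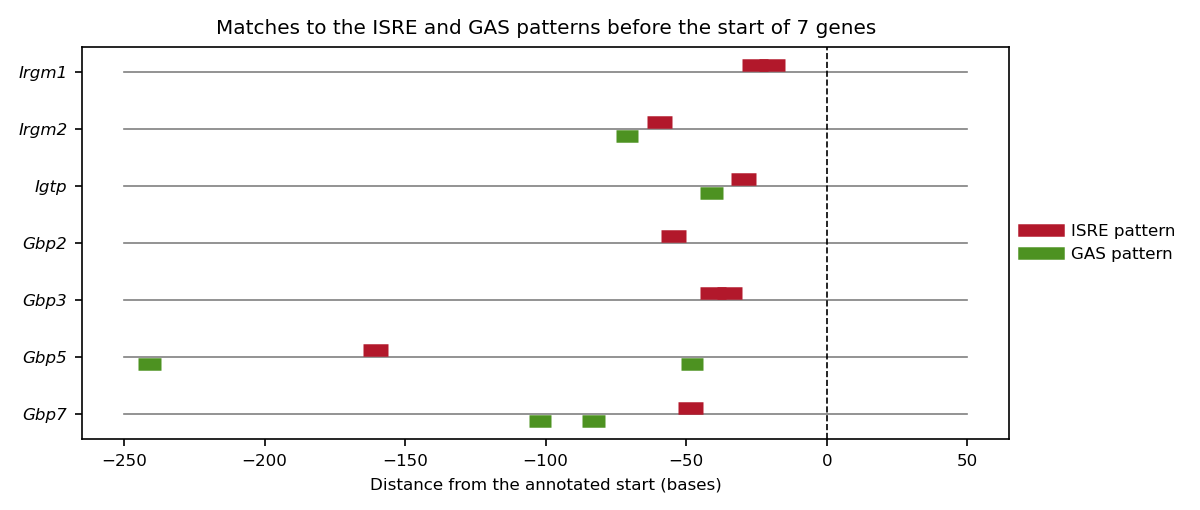
Positions of matches to the ISRE (red) and GAS (green) patterns in the promoter windows of 7 genes, with the distance from the annotated start in bases on the x axis (start at 0, dashed) and 1 line per gene. The ISRE matches lie between -64 and -15 in 6 genes and at -165 to -156 in Gbp5.

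Libraries were checked by their labels first. The 4 transduced factors stood apart in every library, with Gata4 between 82.3 and 355 TPM in GHMT cells and between 0.574 and 2.73 TPM in uninfected cells. TPM, the share of transcripts in a library, is scaled by transcript length and to a fixed sum, so it allows levels of different genes to be compared and keeps no read depth. The 2 arms were deposited in separate tables, so levels of GHMT and uninfected cells stand side by side here without a test. Fibroblast markers (8 genes, collagens and others) summed to between 6080 and 10100 TPM in GHMT cells and between 8660 and 27300 TPM in uninfected cells. Markers of T or NK cells (8 genes), which make interferon gamma, summed to at most 2.5 TPM in any library. Macrophage markers (12 genes) summed to between 33.1 and 308 TPM in GHMT cells and between 17.1 and 140 TPM in uninfected cells. In each of the 6 GHMT groups the macrophage sum was highest in replicate 2 and lowest in replicate 3. The sum of the 8 GTPase genes was highest in replicate 2 at day 2, in replicate 3 at day 7 and in replicate 1 at day 21, with and without DMSO, and the part of macrophages in the results was not tested. Some reads of these genes cannot be placed: 15.9% of the 31-base words in Igtp transcripts also occur in Irgm2, and 14.7% of those in Gbp7, 10.7% of those in Irgm2 and 2.88 to 6.92% of those in the other members occur in other genes.

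At day 2 the GTPase genes were among the abundant messages of GHMT cells. Irgm1 had 793, 911 and 684 TPM in GHMT cells with DMSO, against 836, 872 and 712 TPM in untreated GHMT cells. Iigp1 had 560, 692 and 510 TPM with DMSO, against 576, 788 and 532 TPM untreated. Gbp3 had 427, 445 and 353 TPM with DMSO, against 450, 590 and 424 TPM untreated. For these 3 genes the DMSO and untreated libraries overlapped. The means of Igtp, Gbp2, Irgm2 and Gbp7 lay between 175 and 377 TPM with DMSO and between 182 and 426 TPM untreated. Gbp5, which promotes assembly of the NLRP3 inflammasome, was the lowest, at 11.7, 22.3 and 14.8 TPM with DMSO and 14.4, 26.3 and 24.4 TPM untreated. The 8 genes together held 2960, 3280 and 2510 TPM with DMSO, against 3160, 3680 and 2820 TPM untreated.

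The order of the 8 mean levels at day 2 was Irgm1, Iigp1, Gbp3, Igtp, Gbp2, Irgm2, Gbp7 and Gbp5 in both GHMT groups. Among neighbours in untreated cells, the library ranges of Irgm1 (712 to 872 TPM) and Iigp1 (532 to 788 TPM) overlapped, and so did those of Iigp1, Gbp3, Igtp and Gbp2. Irgm2 (251 to 274 TPM), Gbp7 (154 to 211 TPM) and Gbp5 (14.4 to 26.3 TPM) were each clear of the others. By days 7 and 21 Irgm1, Iigp1 and Gbp3 still led in both GHMT groups, and Gbp7 and Gbp5 were still last.

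In uninfected cells the same genes were at far lower listed levels in 16 of 18 libraries. The sum of the 8 genes there lay between 57.1 and 106 TPM. Irgm1 had 15.7 to 23.5 TPM in those libraries, and Gbp5 was at most 1.03 TPM. The other 2 libraries were both of day 2, DMSO replicate 1 with a sum of 244 TPM and untreated replicate 3 with 523 TPM. Irgm1 had 52.7, 15.7 and 16.7 TPM in uninfected day 2 libraries with DMSO, against 18.5, 18 and 93.6 TPM in the untreated ones. Each of the 8 genes was highest of its group in these libraries except Gbp5 with DMSO, where replicate 3 had 0.967 TPM and replicate 1 had 0.932 TPM.

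The high libraries also carried more of Irf7, an interferon-induced transcription factor. Irf7 had 37.9 TPM in DMSO replicate 1 and 101 TPM in untreated replicate 3, against 4.05 to 9.25 TPM in the other 16 uninfected libraries. Their macrophage marker sums were 17.1 TPM and 33.1 TPM, within the 17.9 to 140 TPM of the other uninfected libraries or below it. Results in uninfected cells that use day 2 are therefore also given without these libraries.

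**Figure D2:**
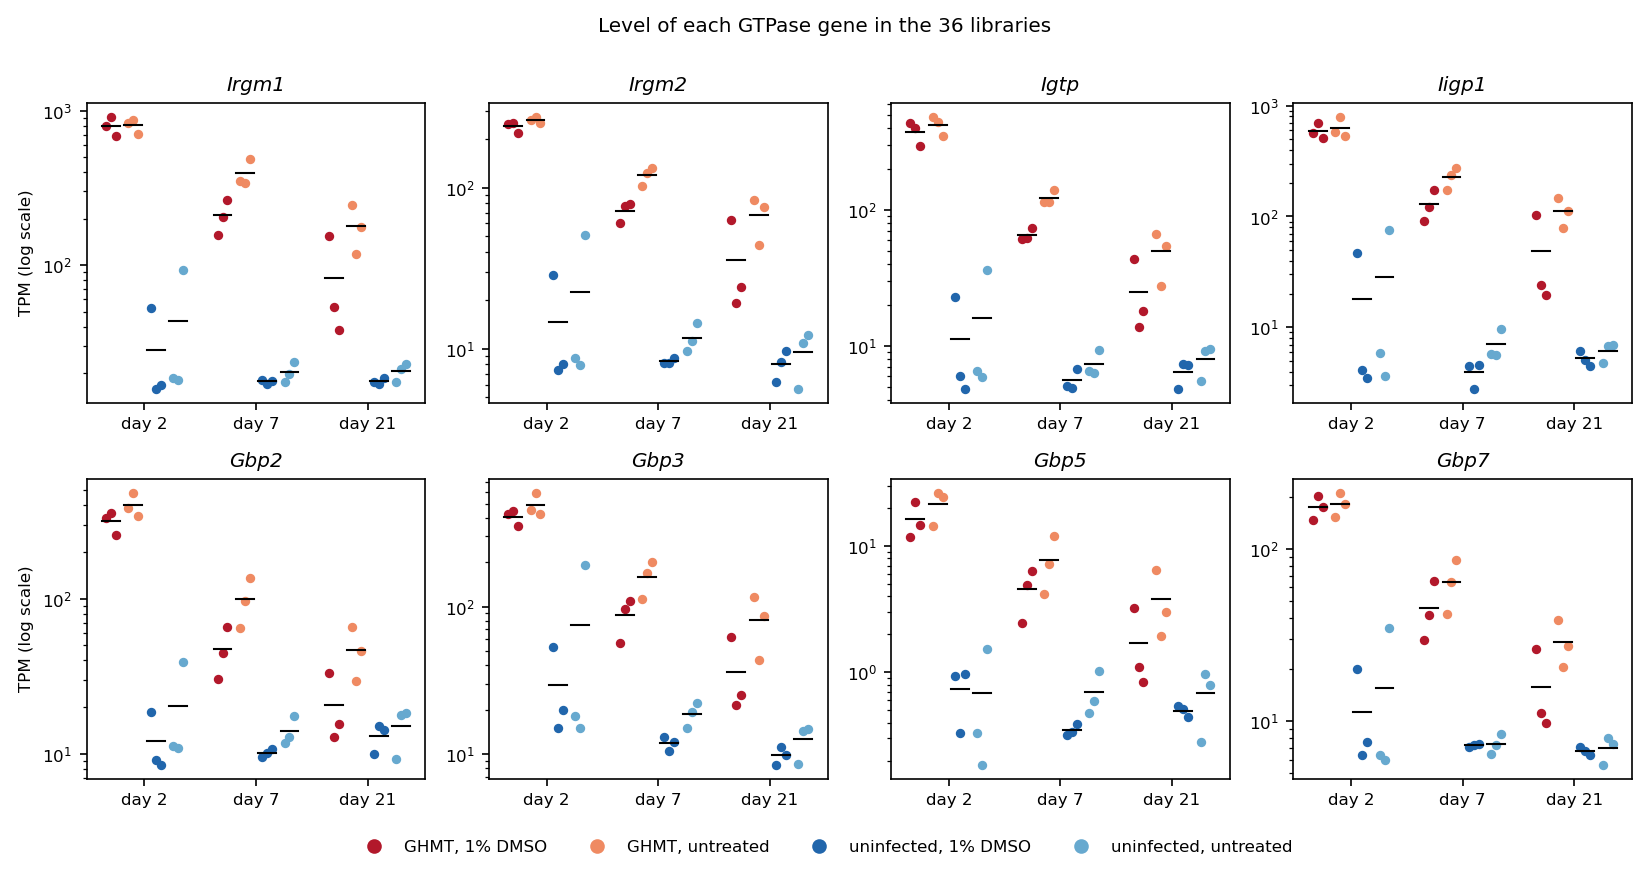
TPM of each gene on a log scale (y axis, its own range per panel) in every library by day, with 1 point per library and a line at the mean of 3. GHMT libraries of later days lie below those of day 2 with the same treatment in all 8 panels. At day 2, 1 DMSO and 1 untreated uninfected library stand above the other uninfected ones, except the DMSO library for Gbp5.

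The share of Iigp1 among the 8 genes differed between the 16 low uninfected libraries and all others, and did not follow their level within GHMT cells. Iigp1 made up 13 to 21.6% of the 8-gene sum in GHMT libraries and 4.53 to 19.1% in uninfected ones. The ratio of Iigp1 to Irgm1 within a library was 0.45 to 0.904 in GHMT cells. In the uninfected libraries it was 0.883 in DMSO replicate 1 and 0.808 in untreated replicate 3 of day 2, and 0.162 to 0.413 in the other 16. Every GHMT library and both high uninfected libraries thus lay above those 16 in this ratio of effector to regulator. The ratio of Gbp3 to Gbp2 set the high uninfected libraries apart from GHMT cells. It was 2.86 in DMSO replicate 1 and 4.87 in untreated replicate 3, against 1.16 to 2.16 in GHMT cells and 0.681 to 2.37 in the other 16. The ratio of Igtp to Irgm1, a pair of regulators, lay between 0.235 and 0.578 in GHMT cells and between 0.276 and 0.438 in uninfected cells. The ranges of the 2 arms overlapped in this ratio. Within GHMT cells it was 0.432 to 0.578 at day 2 and 0.235 to 0.475 at the later days.

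The genes fell with time in GHMT cells. Igtp had 434, 400 and 296 TPM at day 2, 61.3, 62 and 74 TPM at day 7 and 43.3, 13.9 and 18.1 TPM at day 21 in GHMT cells with DMSO. In untreated GHMT cells Igtp had 483, 441 and 352 TPM at day 2, 115, 114 and 140 TPM at day 7 and 66.7, 27.7 and 54.8 TPM at day 21. Every later library was below every day 2 library, with or without DMSO. On the log2(TPM + 1) scale, which understates the change of low genes, the change of Igtp was -2.49 ± 0.35 (SE) at day 7 and -4 ± 0.35 at day 21 with DMSO. Without DMSO it was -1.77 ± 0.35 at day 7 and -3.15 ± 0.35 at day 21.

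In GHMT cells with DMSO all 8 genes were called lower at day 7 than at day 2, in a limma fit over 18 libraries with Benjamini-Hochberg adjusted p of 0.00042 to 0.021, called at an adjusted p under 0.05. Of all genes tested, 4.15% were called lower there. The median log2 change of the 8 was -2.11, against 0.17 over all 20618 genes tested. At day 21 all 8 were again called lower than at day 2, with limma adjusted p of 3.7e-06 to 0.00043, where 16.2% of all genes were called lower. Their median change was -3.56, against 0.09 for all genes. In bulk RNA, fewer cells making these messages and less message per cell cannot be told apart.

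In untreated GHMT cells 4 of the 8 genes were called lower at day 7 than at day 2, namely Gbp2, Gbp3, Gbp7 and Igtp, where 1.48% of all genes were called lower. Their limma adjusted p ran from 0.0072 to 0.033, and those of the other 4 from 0.061 to 0.14. For all 8 the day 7 libraries lay below the day 2 libraries without overlap, as did 5.8% of all genes. The median change of the 8 was -1.5, against 0.16 over all genes. The count rests on single libraries, being 1 to 4 when 1 library of these groups is left out. It was 1 without untreated day 2 replicate 1, and 2 without untreated day 2 replicate 2, day 7 replicate 1 or day 7 replicate 2. The share of all genes called in those fits is not given here. At day 21 all 8 were called lower than at day 2, with limma adjusted p of 4.2e-05 to 0.0022, a median of -2.58 against 0.2 over all genes, and 6.7% of all genes called lower.

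**Figure D3:**
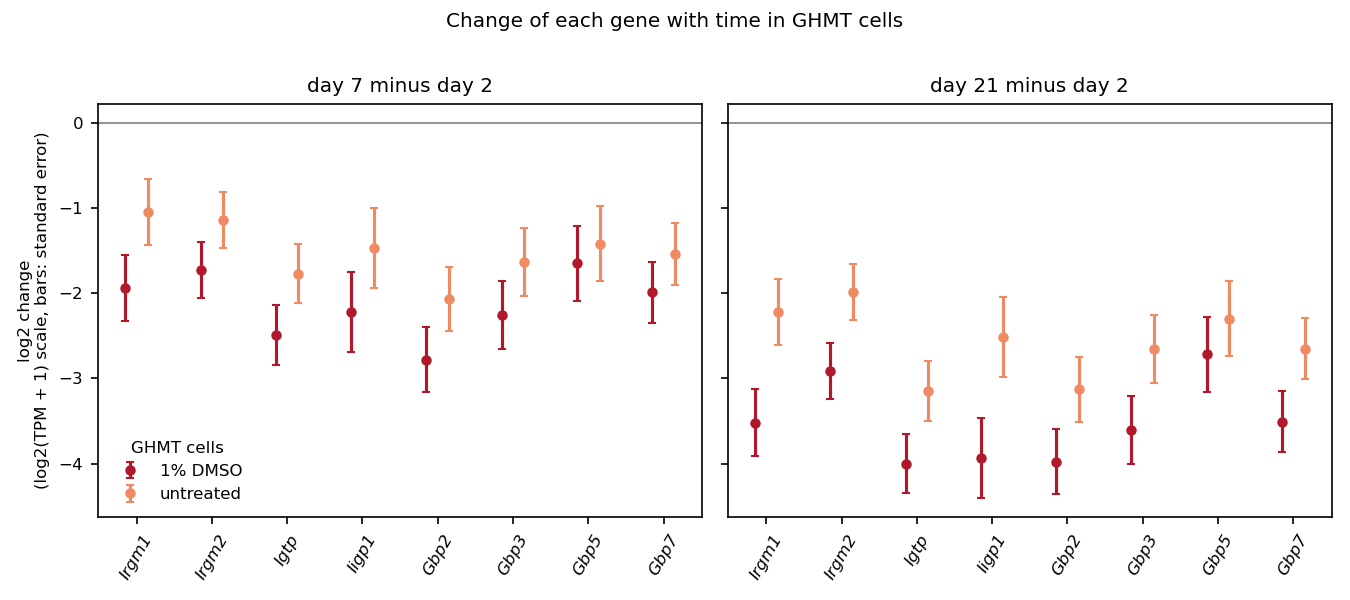
Change of each gene between a later day and day 2 in GHMT cells, as log2(TPM + 1) differences with standard errors from the limma fit (y axis), with DMSO in dark red and untreated in orange. All changes are below 0, and those of day 21 run from -4 to -2.72 with DMSO and from -3.15 to -1.99 untreated.

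In uninfected cells no member was called over time in any of the 4 comparisons, where limma called 2.11% of all genes at day 7 and 15.1% at day 21 with DMSO, and 2.14% and 11% untreated. Gbp5 stayed under 1 TPM in most uninfected libraries and was not tested, which leaves 7 members. The median change was -0.49 at day 7 and -0.51 at day 21 with DMSO, and -0.59 and -0.63 untreated. At an unadjusted p under 0.05 the counts were 0 with DMSO at both days, 0 untreated at day 7 and 1 untreated at day 21. The shares over all genes were 14.2 and 27.8% with DMSO, and 16.1 and 25.5% untreated. Without the 2 high day 2 libraries the same medians were 0.05 and 0.12 with DMSO, and 0.22 and 0.16 untreated. Gbp3 with DMSO at day 21 was then the 1 member called, with a change of -0.77 and a limma adjusted p of 0.044, where 13.2% of all genes were called. At an unadjusted p under 0.05 there was then 1 member with DMSO at each later day, and 0 untreated. The shares over all genes were then 12.7 and 27.7% with DMSO, and 17 and 22.1% untreated. Because the 2 libraries were picked by the members' own high values, these counts of members cannot be weighed against those shares.

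In transduced cells the GTPase messages were lower under DMSO at the later days, without passing the test over all genes in the fit without replicate blocks. They differed little at day 2. At day 2 the median log2 change of the 8 with DMSO was -0.16, against 0.04 over all genes, and each of the 8 was between -0.4 and -0.02. None was called by limma and none had an unadjusted p under 0.05, against 0.00485 and 3.42% of all genes. Same-numbered libraries deviated together at day 2 and were taken as pairs, and 23 of the 24 differences of a gene in a pair were negative. The 8 genes moved together over the GHMT libraries, so these are not 24 separate observations, and the share over all genes is not given here. The mean change over the 8 genes was -0.12, -0.19 and -0.25 in the 3 pairs. With a replicate block within each day, an alternative chosen after the data were seen, none was called at day 2 (limma adjusted p of 0.58 to 1) and 2 of the 8 had an unadjusted p under 0.05, against 8.17% of all genes.

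At day 7 Irgm1 had 157, 206 and 266 TPM with DMSO, against 351, 338 and 490 TPM untreated. Igtp had 61.3, 62 and 74 TPM with DMSO, against 115, 114 and 140 TPM untreated. Irgm2 had 60, 76.7 and 78.7 TPM with DMSO, against 103, 124 and 132 TPM untreated. All 3 regulators were lower with DMSO in every library, without overlap. The effector Iigp1 had 90.2, 122 and 173 TPM with DMSO, against 174, 238 and 273 TPM untreated. These libraries came close without overlapping, at 173 TPM for the highest with DMSO and 174 TPM for the lowest untreated.

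Among the guanylate-binding proteins, Gbp3 had 56.4, 96.6 and 109 TPM with DMSO at day 7, against 112, 168 and 200 TPM untreated. Gbp2, which is recruited to Toxoplasma vacuoles, had 30.4, 44.8 and 65.9 TPM with DMSO, against 64.3, 97 and 135 TPM untreated. The Gbp3 libraries did not overlap, and for Gbp2 the highest DMSO library just passed the lowest untreated one. Gbp7 had 29.5, 41.2 and 64.8 TPM with DMSO and 42.2, 64.6 and 86 TPM untreated. Gbp5 had 2.47, 4.93 and 6.4 TPM with DMSO and 4.21, 7.23 and 12 TPM untreated. For Gbp7 and Gbp5 the groups overlapped.

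The log2 changes with DMSO at day 7 were -1.06 ± 0.38 for Gbp2, -0.92 ± 0.39 for Irgm1, -0.89 ± 0.35 for Igtp and -0.88 ± 0.4 for Gbp3 (SE, n = 3 libraries a group, limma). Those of Iigp1, Irgm2, Gbp5 and Gbp7 were -0.85 ± 0.47, -0.73 ± 0.33, -0.62 ± 0.44 and -0.51 ± 0.36. The median was -0.87, against 0.07 over all genes. None of the 8 was called, with limma adjusted p of 0.19 to 0.54, where 0.708% of all genes were called. At an unadjusted p under 0.05 there were 5 of the 8, against 15.6% of all genes. Groups did not overlap for 5 of the 8, all lower with DMSO, and for 6.9% of all genes in that direction.

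Same-numbered GHMT libraries of day 7 were likewise taken as pairs. The mean change over the 8 genes was -0.86, -0.78 and -0.79 in the 3 pairs, and each gene was lower with DMSO in each pair. Because the 8 genes moved together, they do not count as separate observations here either. With the replicate number as a block common to all days none of the 8 was called, and the share of all genes called is not given here. With the block within each day 3 were called, with limma adjusted p of 0.0064 for Gbp2, 0.022 for Igtp and 0.024 for Gbp3. Over all genes that fit called 630 higher and 472 lower, or 5.34% of all genes, against 0.708% without a block. The macrophage marker sums of the same libraries were 122, 275 and 40 TPM with DMSO, against 111, 308 and 45.9 TPM untreated, and all 12 macrophage markers were above 0 in each.

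At day 21 Irgm1 had 154, 53.6 and 38.2 TPM with DMSO, against 244, 118 and 176 TPM in untreated GHMT cells. Iigp1 had 104, 24.1 and 19.7 TPM with DMSO, against 147, 78.4 and 112 TPM untreated. Gbp3 had 62.1, 21.5 and 25 TPM with DMSO, against 116, 43.1 and 85.8 TPM untreated. In all 8 genes the highest DMSO library, replicate 1, stood above the lowest untreated one, replicate 2, so the groups overlapped, while 13.2% of all genes were lower with DMSO without overlap. Igtp, Irgm2, Gbp2, Gbp7 and Gbp5 averaged 25.1, 35.4, 20.5, 15.8 and 1.72 TPM with DMSO, against 49.7, 68, 46.9, 28.9 and 3.82 TPM untreated.

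The log2 changes with DMSO at day 21 were -1.53 ± 0.47 for Iigp1, -1.32 ± 0.39 for Irgm1, -1.2 ± 0.38 for Gbp2 and -1.2 ± 0.4 for Gbp3 (SE, n = 3 libraries a group, limma). Those of Irgm2, Igtp, Gbp7 and Gbp5 were -1.06 ± 0.33, -1.03 ± 0.35, -0.92 ± 0.36 and -0.82 ± 0.44. The median was -1.13, against -0.06 over all genes. None of the 8 was called, with limma adjusted p of 0.068 to 0.27, where 4.59% of all genes were called, and 7 of the 8 had an unadjusted p under 0.05, against 24.1% of all genes. Without DMSO replicate 1, the library with the most GTPase message of its group, 7 of the 8 were called and the median was -1.57. That fit called 1200 genes higher and 1938 lower, against 333 and 614 with the library kept. The library left out was the highest DMSO library for these genes. The wider gap was thus fixed by that choice, and the count is no support. Fits without other libraries, or with replicate blocks, are given at the end.

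Other measures moved with DMSO in the same GHMT libraries. Cardiomyocyte markers (8 genes) summed to between 3280 and 4950 TPM with DMSO at day 7, against 1120 to 2170 TPM untreated, and to between 4660 and 7180 TPM with DMSO at day 21, against 2490 to 2910 TPM untreated. Tbx5, one of the transduced factors, had 513, 293 and 318 TPM with DMSO at day 7, against 247, 150 and 169 TPM untreated. The 4 factors had changes of 0.87 to 0.98 at day 7, and of 0.73 to 0.78 at day 21, none of them called (limma adjusted p of 0.07 to 0.2). At day 21 the macrophage marker sums were 87, 204 and 33.1 TPM with DMSO, against 109, 271 and 54.8 TPM untreated, lower with DMSO at each replicate number. All 12 macrophage markers had negative changes there, with a median of -0.57, against -0.06 over all genes. None was called or had an unadjusted p under 0.05, against 4.59 and 24.1% of all genes. The part of these measures in the GTPase values was not tested.

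**Figure D4:**
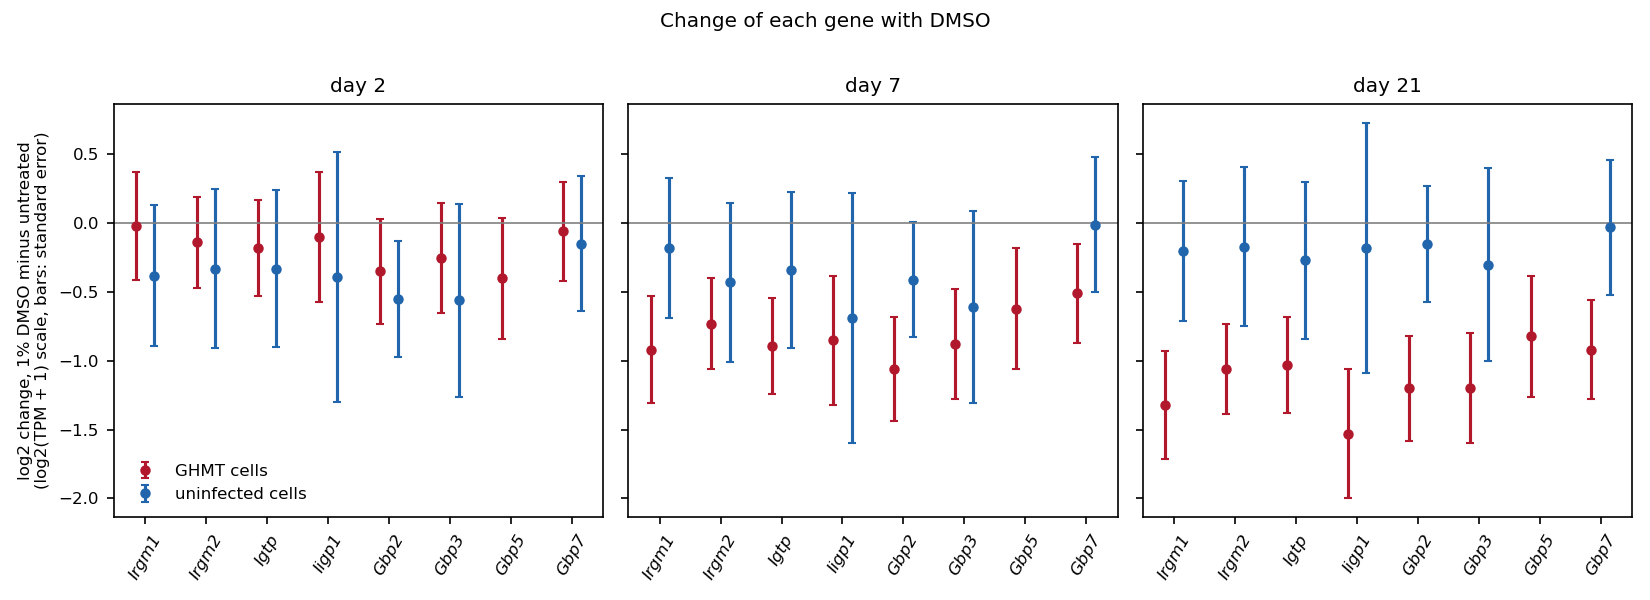
Change of each gene with DMSO at each day, as log2(TPM + 1) differences with standard errors from the limma fits (y axis), for GHMT cells (red) and uninfected cells (blue, without Gbp5, which was not tested there). In GHMT cells the median over the 8 genes is -0.16 at day 2, -0.87 at day 7 and -1.13 at day 21.

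In uninfected cells none of the 7 tested members was called with DMSO at any day, and none had an unadjusted p under 0.05. The limma fit called 0.285% of all genes at day 2, 1.69% at day 7 and 2.36% at day 21. An unadjusted p under 0.05 was seen for 11.4, 15.7 and 13.6% of all genes. The 2 high libraries of day 2 also enter the spread that this fit uses at days 7 and 21. Without them none was called at any day, and at day 7 Gbp3 (-0.61 ± 0.2 in place of -0.61 ± 0.7) and Iigp1 (-0.69 ± 0.23 in place of -0.69 ± 0.91) had an unadjusted p under 0.05 and a limma adjusted p of 0.15 each. That was 2 of 7 members, against 16.5% of all genes, and there was none at day 2 or 21, against 11.9 and 14.2%. The day 7 changes did not move, and only the spread fell, as the libraries left out were picked by the members' own high values. This count therefore cannot be weighed against the share over all genes. The median change of the members in the fit of all libraries was -0.38 at day 2, -0.41 at day 7 and -0.18 at day 21, against 0.05, 0 and 0.01 over all genes. Without the 2 high libraries the day 2 median was -0.16, without untreated replicate 3 alone it was 0.48, and without DMSO replicate 1 alone it was -0.93. At day 7 the groups did not overlap for Gbp2, Gbp3, Irgm2 and Iigp1, all lower with DMSO, nor for Gbp5, which was at most 1.03 TPM and not tested, and 14.2% of all genes tested did the same. Gbp3 had 13, 10.5 and 12 TPM with DMSO at day 7, against 15, 19.1 and 22 TPM untreated. Macrophage markers had negative changes with DMSO in these cells, 9 of 9 tested at day 7 (median -0.76) and at day 21 (median -0.8). None of these markers was called, and 4 and 6 of them had an unadjusted p under 0.05, against 15.7 and 13.6% of all genes. Their sums at day 7 were 31, 52.2 and 58.5 TPM with DMSO, against 94, 33.8 and 140 TPM untreated, and their part in the GTPase values was not tested.

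The DMSO effect in GHMT cells minus that in uninfected cells was tested in 1 fit of all 36 libraries. No member was called at day 2, 7 or 21, where 0, 0.0213 and 0.277% of all genes were called. None had an unadjusted p under 0.05, against 1.04, 7.47 and 13% of all genes. The median difference over 7 members was 0.2 at day 2, -0.5 at day 7 and -0.9 at day 21, against 0, 0.08 and -0.05 over all genes. The day 2 median was -0.64 without uninfected untreated replicate 3, and it was also below 0 without uninfected DMSO replicate 2 (-0.11) or replicate 3 (-0.06). The day 21 median was -1.38 without GHMT DMSO replicate 1. Without both high uninfected libraries the medians were -0.03, -0.5 and -0.9, and again no member was called. Those libraries were picked by the members' own high values. Leaving them out lowered the members' spread at unchanged day 21 changes, as for Iigp1 (-1.35 ± 0.55 in place of -1.35 ± 1.06). Counts of members are then partly fixed by that choice and cannot be weighed against all genes. At day 21 an unadjusted p under 0.05 was then seen for 5 of the 7, namely Gbp2, Gbp7, Irgm1, Irgm2 and Iigp1, and for 13% of all genes. It was seen for none at day 2 or 7, and for 1.48 and 7.61% of all genes. Limma adjusted p at day 21 was 0.31 to 0.44 over the 7.

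The interferon genes themselves were measured in the same libraries. Ifng, the gene of interferon gamma, was listed at 0 in all 36 libraries. Ifnb1, the gene of interferon beta, had 46.4, 33.9 and 21 TPM with DMSO and 51.9, 43.6 and 41.8 TPM untreated in GHMT cells at day 2. At day 7 Ifnb1 had 0.742, 2.66 and 2.66 TPM with DMSO, against 3.99, 6.44 and 6.75 TPM untreated. In uninfected cells it was above 0 in 3 of 18 libraries and at most 0.138 TPM, and in the library with the highest GTPase sum of that arm it was listed at 0. Ifna4, an interferon alpha gene, had 22.6, 22.8 and 17.3 TPM with DMSO and 28, 16.1 and 22.2 TPM untreated in GHMT cells at day 2, and at most 0.156 TPM in uninfected cells. These 3 genes were chosen after their values were seen.

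Ifnb1 fell between day 2 and day 21 in GHMT cells, with changes of -4.11 ± 0.64 with DMSO and -4.05 ± 0.64 untreated (log2, SE, limma adjusted p = 0.00031 and 0.00056). With DMSO at day 7 its libraries lay below the untreated ones without overlap, at a change of -1.21 ± 0.64 and a limma adjusted p of 0.39. Irf7, a transcription factor of type I interferon induction that interferon also induces, had 79.4, 24.7 and 31.4 TPM with DMSO at day 21, against 200, 92.3 and 162 TPM untreated. Its change of -1.84 ± 0.33 was called (limma adjusted p = 0.0086).

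Irf1, a transcription factor of the interferon gamma response, was called over time in GHMT cells and not with DMSO. Irf1 had 32.1, 32.1 and 33.6 TPM with DMSO and 28.9, 35.4 and 35.9 TPM untreated at day 7, a change of -0.03 ± 0.12 (limma adjusted p = 0.95). It fell between day 2 and day 21, with changes of -1.56 ± 0.12 with DMSO and -1.75 ± 0.12 untreated (limma adjusted p = 1.4e-06 and 1.3e-06).

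**Figure D5:**
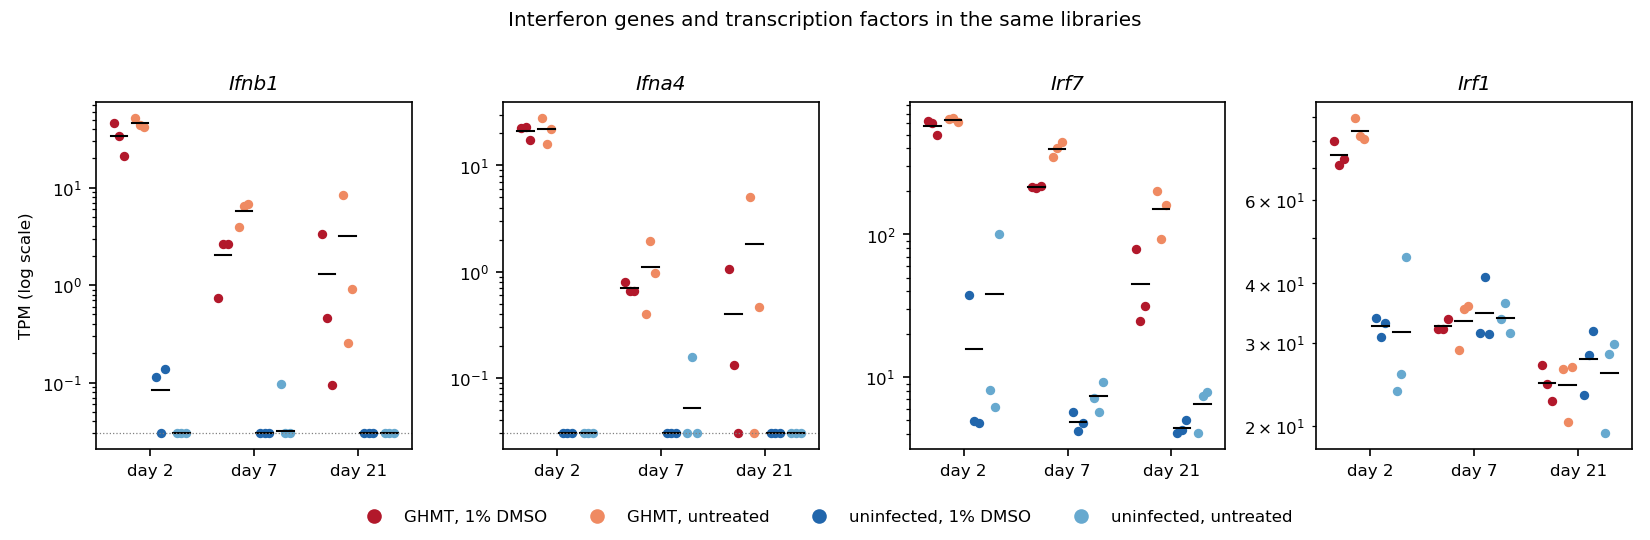
TPM on a log scale (y axis) of Ifnb1, Ifna4, Irf7 and Irf1 in every library by day, with 1 point per library and a line at the mean of 3. Values under 0.03 TPM are drawn on the dotted line at 0.03. Ifnb1 and Ifna4 stand above 15 TPM only in GHMT libraries of day 2, and the 2 high uninfected libraries of day 2 are seen for Irf7.

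The other genes of both families were counted as a list. Of 17 listed, 14 were tested in GHMT cells. Among them 13 were called lower at day 21 than at day 2 with DMSO and 12 untreated, against 16.2 and 6.7% of all genes. Irgq, an atypical family member singled out after its values were seen, was the 1 called higher in both. With DMSO at day 21, 12 of the 14 had negative changes, and the median was -1.15, against -0.06 over all genes. The 1 of 14 called, where 4.59% of all genes were called, was Tgtp2. It had 5.99 TPM with DMSO against 27.7 TPM untreated (log2 change -2.05 ± 0.51, limma adjusted p = 0.037). Tgtp2 is nearly identical to Tgtp1, so its share of their reads is uncertain. At day 7 none of the 14 was called and 9 had an unadjusted p under 0.05, against 15.6% of all genes.

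Of 18 type I interferon response genes all had negative changes under DMSO in transduced cells, both at day 7 and at day 21. The share of all genes with negative changes is not given here. At day 7 the median was -0.78, against 0.07 over all genes, and 1 was called, where 0.708% of all genes were called. This was Samhd1, which degrades deoxynucleotides (60.2 TPM with DMSO against 110 TPM untreated, -0.86 ± 0.17, limma adjusted p = 0.039). At day 21 the median was -1, against -0.06 over all genes, and 3 were called, where 4.59% of all genes were called. These were Samhd1 (-0.71 ± 0.17, limma adjusted p = 0.027), Xaf1 (-1.22 ± 0.31, limma adjusted p = 0.042, groups overlapping) and Oas2. Oas2, a sensor of double-stranded RNA, had 10.8 TPM with DMSO against 41.9 TPM untreated (-1.95 ± 0.4, limma adjusted p = 0.015). The genes of type I interferon signalling had 1 of 15 called at day 21, Irf7, against 4.59% of all genes. None of the 15 was called at day 7, where 4 had an unadjusted p under 0.05, against 15.6% of all genes.

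Interferon gamma response genes, mostly of antigen presentation, had 16 of 22 tested. With DMSO 0.708% of all genes were called at day 7 and 4.59% at day 21. Serping1, the C1 inhibitor of complement, was called at day 7 (37 TPM with DMSO against 136 TPM untreated, -1.81 ± 0.29, limma adjusted p = 0.021) and at day 21 (55.3 TPM against 242 TPM, -2.1 ± 0.29, limma adjusted p = 0.0017). B2m, the light chain of MHC class I, was called at day 21 (1260 TPM with DMSO against 2640 TPM untreated, -1.16 ± 0.23, limma adjusted p = 0.013). Nlrc5, which drives MHC class I genes, was the other called at day 21 (5.15 TPM against 15 TPM, -1.58 ± 0.38, limma adjusted p = 0.033). Of interferon gamma and its signalling genes, 12 of 13 were tested and none was called with DMSO, with 2 at an unadjusted p under 0.05 at day 7, against 15.6% of all genes, and 5 at day 21, against 24.1%.

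Partners of the GTPases gave a mixed picture, with 17 of 18 tested in GHMT cells, where DMSO calls made up 0.708% of all genes at day 7 and 4.59% at day 21. Gsdmd, the pore protein of pyroptosis, fell with DMSO at day 7 (8.76 TPM against 20.8 TPM untreated, -1.14 ± 0.23, limma adjusted p = 0.042) and at day 21 (5.73 TPM against 17.3 TPM, -1.43 ± 0.23, limma adjusted p = 0.0039). Casp4, the inflammatory caspase that senses lipopolysaccharide, fell at day 21 (8.97 TPM against 31.5 TPM, -1.75 ± 0.41, limma adjusted p = 0.027). The other 15 of the 17, among them the conjugation genes Atg3, Atg5, Atg7, Atg12 and Atg16l1, were not called with DMSO at either day.

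Among genes that are not members and have an ordinary symbol, those most like the GTPases across all 36 libraries were Parp9, Cmpk2, Dtx3l, Ddx60 and Ifi35. Their Pearson correlations with the mean of the 8 genes, on log2(TPM + 1) with each arm's mean removed, were 0.99 for Parp9, 0.982 for Cmpk2, 0.98 for Dtx3l and 0.978 for both Ddx60 and Ifi35. Gm12250, left out for its clone-type symbol, is in the list of other family genes and ranked between Parp9 and Cmpk2 at 0.988. Each member correlated with the mean of the other 7 at 0.97 to 0.996 over the 18 GHMT libraries. Over the 18 uninfected libraries these correlations were 0.767 for Gbp5 and 0.87 to 0.985 for the others. The points share 18 libraries per arm and include the fall with time in GHMT cells and the 2 high libraries in uninfected cells.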

How the data were processed

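Expression was deposited by the authors as TPM in 1 table per arm, per the file headers. Trimmomatic, FastQC and kallisto are named, per the submitters' processing notes. Annotation, build and strand use of the quantification: not given in the sources used here. Of 50698 entries, 97 are no genes. They took 0.248 to 4.81% of TPM and were dropped without rescaling. Between 15776 and 18486 genes per library reached 1 TPM. TPM keeps no depth, so counting error is unknown.

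Genes that reached 1 TPM in 3 libraries or more of a table were fitted on log2(TPM + 1) with limma 3.58.1 (R 4.3.3, trend on, 1 mean per group). Residual df were 12 in the fit of a single table. The fit of all 36 libraries, and fits with blocks or left-out libraries, have other residual df. P-values are two-sided with Benjamini-Hochberg adjustment over all genes, and a call is an adjusted p under 0.05. The fit was tested on simulated data. The members, lists and tests were chosen with earlier results of these data known. Named genes are the 8 members, Irf1, the 4 factors, from each list up to 2 called genes with the smallest adjusted p per DMSO comparison (Xaf1, Nlrc5 and the interferon genes were added after their values were seen), and the 5 most correlated genes.

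Pairing was checked by correlating how libraries with the same number depart from their group means. GHMT values were 0.19 to 0.34 (day 2) and 0.18 to 0.25 (day 7), over the 0.1 required, and numbers were taken as pairs there from these data alone. Alternatives were other pseudocounts, filters, scalings, library sets and replicate blocks.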

Additional observations from a re-analysis of the deposited data

How the results depend on the processing

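Under pseudocounts of 0.1 and 5, filters, scalings, variance models and left-out libraries, no member named in GHMT cells changed sign at days 7 and 21 with DMSO or over time. The count of members called moved in few places. For day 7 against day 2 in untreated GHMT cells it was 4, 2 with no filter on low values, and 1 to 4 without 1 library. For DMSO in GHMT cells it was 0 at both later days under the table-wide replicate block. With a replicate block within each day, chosen after the data were seen, it was 3 at day 7 and 8 at day 21. The limma adjusted p of the 8 members at day 21 was 0.0016 to 0.015. That fit called 5.34% of all genes at day 7, against 0.708%, and 12.3% at day 21, against 4.59%. At day 21 it called 1022 genes higher and 1514 lower, against 333 and 614. At day 21, and in uninfected cells at all days, the pair correlations were not all over 0.1 (0.07 to 0.19 in GHMT cells at day 21), so the numbers there are only numbers. Leaving out 1 library gave 0 to 7 called at day 21.

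Medians of members moved by more than 1 SD between replicates in a few cases. Day 21 against day 2 with DMSO in GHMT cells gave -4.09 to -3.35 without 1 library, lowest without DMSO day 21 replicate 1. In uninfected cells the day 21 DMSO effect was -0.45 without the 3 libraries that an earlier account set apart, and -0.45 to -0.1 without 1 library. Without the 2 high day 2 libraries, also chosen after the data were seen, changes with DMSO from day 2 were 0.05 at day 7 and 0.12 at day 21, with 1 member called, and leaving out 1 library gave -0.81 to 0.05 and -0.81 to 0.12. The difference between the arms' DMSO effects ran from -0.64 to 0.79 at day 2 and from -1.38 to -0.7 at day 21 without 1 library. Scaling by median ratios lowered the median of all genes at day 7 in untreated GHMT cells to 0.06, against 0.16, and the members' median to -1.63, against -1.5. It moved the day 7 DMSO calls in GHMT cells to 58 higher and 89 lower, against 73 each, and the DMSO calls between days 7 and 2 to 1867 higher and 1477 lower, against 2729 and 855. Rescaling to protein-coding genes gave 805 higher and 594 lower at day 21, against 333 and 614. Unknown depth limits Gbp5 and other low values most.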
